A study of Homo sapiens with 12 samples.

Results

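The integrin and laminin subunits are the 38 genes of 63086 in the deposited table whose symbols name an integrin alpha subunit (18 genes), an integrin beta subunit (8 genes) or a laminin chain (12 genes). They were chosen by name alone, and all 38 symbols matched a GENCODE gene. The RNA came from MIA PaCa-2, an established human pancreatic carcinoma line that the study describes as mesenchymal and basal-like, grown in RPMI 1640 with serum, and the 12 libraries fall into 4 lines of 3 biological replicates each. WT is the unedited parental line. CRISPR Control is a single control line from the editing that carries only a silent point mutation in TIMP1, and its genotype label is WT with that mutation. TIMP1 KO 1 and TIMP1 KO 2 are a pair of knockout clones made with guide RNAs against different regions of exon 4 of TIMP1, which encodes a secreted metalloproteinase inhibitor. The study calls the first 2 lines TIMP1-competent and the last 2 TIMP1-deficient. Each edited line is 1 line, so an effect of the edit and a difference between clones cannot be told apart within any single pair. The p-values measure the spread between libraries of a line.

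The libraries held 26908701 to 36093563 reads in genes. TIMP1 itself averaged 3553 ± 274 normalised counts in WT (SD, n = 3, as for every mean below), 2690.4 ± 357 in CRISPR Control, 1599.6 ± 32.8 in TIMP1 KO 1 and 1161 ± 28.8 in TIMP1 KO 2. By line mean its RNA was lower in both knockout lines than in both competent lines, but it was not lost. The 6 markers of carcinoma epithelium were all above the detection filter, but they did not move together. Their summed level, nearly all from KRT8, KRT18 and KRT19, ran from 174305 to 223516 in the libraries of WT and both knockout lines and from 56587 to 72786 in CRISPR Control. CDH1 (E-cadherin) was instead low in the knockout lines, at 1189 ± 56.6 in WT, 1424 ± 73 in CRISPR Control, 128 ± 28.1 in TIMP1 KO 1 and 84.9 ± 17.1 in TIMP1 KO 2, and EPCAM averaged 1890 ± 88.6, 1875 ± 297, 2036 ± 181 and 1299 ± 95.3 in the same order. The mesenchymal markers did not move together either. CDH2 averaged 571 in WT, 1110 in CRISPR Control, 93.7 in TIMP1 KO 1 and 384 in TIMP1 KO 2. In the same order, FN1 averaged 105, 826, 51.2 and 90.6, and ZEB2 averaged 33.9, 173, 49.2 and 120. VIM averaged 70742, 58625, 93176 and 72716, and ZEB1 averaged 1226, 954, 1288 and 1258. The 10 leukocyte markers summed to 38.2 to 174.5 per library, and MS4A1, a B cell marker, was at 0 in all 12 libraries.

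Integrins are heterodimers of 1 alpha and 1 beta subunit that span the membrane and tie matrix proteins outside the cell to talin, kindlin and actin inside it. The alpha subunit largely sets the ligand: collagens, laminins, or proteins with an RGD motif such as fibronectin and vitronectin, while a further set with ITGB2 serves leukocytes. Laminins are cross-shaped trimers of an alpha, a beta and a gamma chain that polymerise into the basement membrane on which epithelia rest, and in pancreatic carcinoma both families are known for their part in adhesion and invasion.

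In all, 30 members had a mean of at least 10 normalised counts over the 12 libraries and were tested: 12 alpha subunits, 6 beta subunits and all 12 laminin chains. Levels were compared between genes as normalised counts per kb of the MANE Select transcript. On this scale ITGB1, the partner of most alpha subunits, had the highest level of all members in every line, from 7228 in CRISPR Control to 13943 in TIMP1 KO 1. ITGB5, a partner of ITGAV, came second with 3552 to 10688. The leading alpha subunits were the laminin receptor ITGA3 (1716 to 2482), the RGD receptors ITGAV (1640.4 to 2374) and ITGA5 (912 to 2002), and the laminin receptor ITGA6 (1019 to 1545). Of the laminin chains, LAMB1, LAMC1, LAMA5 and LAMB2 had the highest levels per kb, with means over the 12 libraries of 1886, 1119, 1116 and 1008. A single alpha chain, LAMA5, was therefore abundant: the other 4 alpha chains averaged between 1.06 (LAMA2) and 6.77 (LAMA4) normalised counts per kb.

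**Figure D1:**
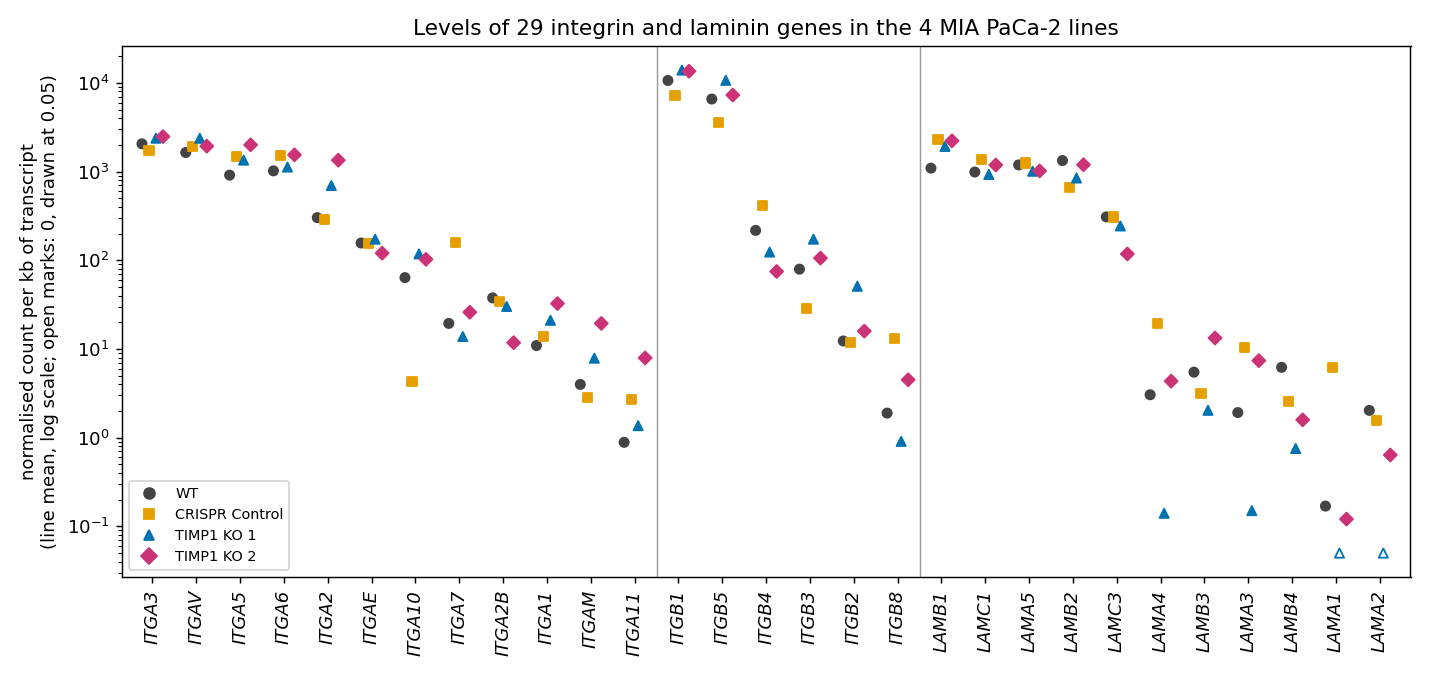
Line means of 29 tested members in normalised counts per kb of MANE Select transcript (log axis), with alpha subunits, beta subunits and laminin chains in 3 blocks, each ordered by the mean over 12 libraries. ITGB1 and ITGB5 lie at the top in every line, and TIMP1 KO 1 drops to 0.151 for LAMA3, 0.14 for LAMA4 and 0 for LAMA1 and LAMA2.

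Of the 30 tested members, 29 differed somewhere among the 4 lines by limma's moderated F test with Benjamini-Hochberg adjustment over 15987 genes, beside 80.4% of all genes tested. LAMA5 was the exception (limma adjusted p = 0.0793). Against WT, 22 members differed in TIMP1 KO 1, beside 35.5% of all genes: 12 were higher, beside 18.0% of all genes, and 10 lower, beside 17.5%. In TIMP1 KO 2, 24 differed from WT, beside 55.0%, and the split was uneven, with 18 higher beside 27.1% and 6 lower beside 27.9%. CRISPR Control, the other competent line, had 11 members higher (27.2% of all genes) and 8 lower (26.3%) than WT, beside 53.4%. The knockout lines themselves were 24 members apart, beside 38.2%, of which 16 were higher (18.1% of all genes) and 8 lower (20.1%) in TIMP1 KO 2. Members thus differed between the 2 competent lines too, at 63.3% of the 30, which is not far above the 53.4% of all genes. With libraries scaled to equal totals, the share of higher genes among all genes called moved from 49.3% to 59.9% in TIMP1 KO 2 against WT and from 47.4% to 65.5% between the knockout lines. The split over all genes in these pairs thus depended on the scaling. Of the members, 25 in place of 24 were then called in TIMP1 KO 2 against WT, and their split under that scaling is not given here.

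Against CRISPR Control, 25 members differed in TIMP1 KO 1, beside 63.0% of all genes, with 12 higher (31.7%) and 13 lower (31.3%). In TIMP1 KO 2, 22 differed from CRISPR Control, beside 67.7%, with 13 higher (33.3%) and 9 lower (34.4%). These pairs share CRISPR Control, and the pairs against WT share WT. The filter bears on such counts: 8 of the 30 tested members (LAMA1, LAMA2, LAMA3, LAMA4, LAMB3, LAMB4, ITGA11 and ITGB8) had at least 1 line mean under 10, and LAMA1 passed through CRISPR Control alone. LAMA2 and LAMB4 had a line mean of at least 10 in the competent lines only, and so passed through the lines where they were high. Changes past the threshold of at least 1 on the log2 scale were found for 9 members in TIMP1 KO 1 (8.21% of all genes), 15 in TIMP1 KO 2 (14.7%) and 11 in CRISPR Control (14.7%) against WT, and for 10 between the knockout lines (8.25%). Against CRISPR Control they were 14 in TIMP1 KO 1 (21.2%) and 16 in TIMP1 KO 2 (24.5%). The range of the 4 line means reached 1 for 23 of the 30, beside 34.0% of all genes.

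The counts were also read with low genes left aside, and the shares were farthest above the background in TIMP1 KO 1 against WT and between the knockout lines. Among the 19 members with a mean of at least 100, the range of the line means reached 1 on the log2 scale for 12, beside 23.8% of the 11642 genes at that level. Of these 19, 14 differed from WT in TIMP1 KO 1 (39.8% of genes at that level), 16 in TIMP1 KO 2 (60.2%) and 13 in CRISPR Control (58.2%). Against CRISPR Control, 16 differed in TIMP1 KO 1 (67.8%) and 15 in TIMP1 KO 2 (72.2%), and 15 differed between the knockout lines (42.8%). The direction of each class depended on the pair of lines. Against WT in TIMP1 KO 1, 6 of 12 alpha subunits and 4 of 6 beta subunits were higher, beside 18.0% of all genes, and 7 of 12 laminin chains were lower, beside 17.5%, with 2 higher. In TIMP1 KO 2 against WT, 5 laminin chains were higher (27.1% of all genes) and 3 lower (27.9%). CRISPR Control against WT also had 5 higher (27.2%) and 3 lower (26.3%). In both pairs the lower chains, 25% of the 12, were near the share of all genes. Between the knockout lines 8 were higher (18.1%) and 1 lower (20.1%) in TIMP1 KO 2. The median log2 fold change in TIMP1 KO 1 against WT was 0.55 for the alpha subunits, 0.55 for the beta subunits and -0.96 for the laminin chains, beside 0.0032 for all genes tested, and the laminin chains had a median of 0.05 in TIMP1 KO 2 against WT.

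**Figure D2:**
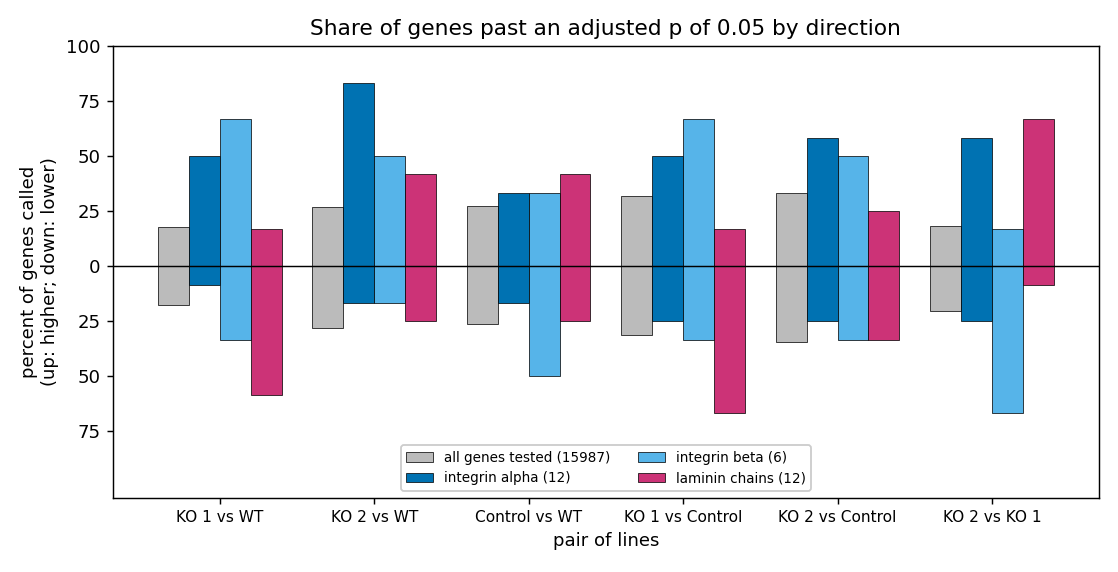
Percent of genes past a limma adjusted p of 0.05 in the 6 pairs of lines, bars upward for higher and downward for lower in the first line named. Grey bars are all 15987 genes tested, dark blue the 12 alpha subunits, light blue the 6 beta subunits and pink the 12 laminin chains. Alpha subunits reach 83.3% higher in TIMP1 KO 2 against WT, and laminin chains 58.3% lower in TIMP1 KO 1 against WT.

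**Figure D3:**
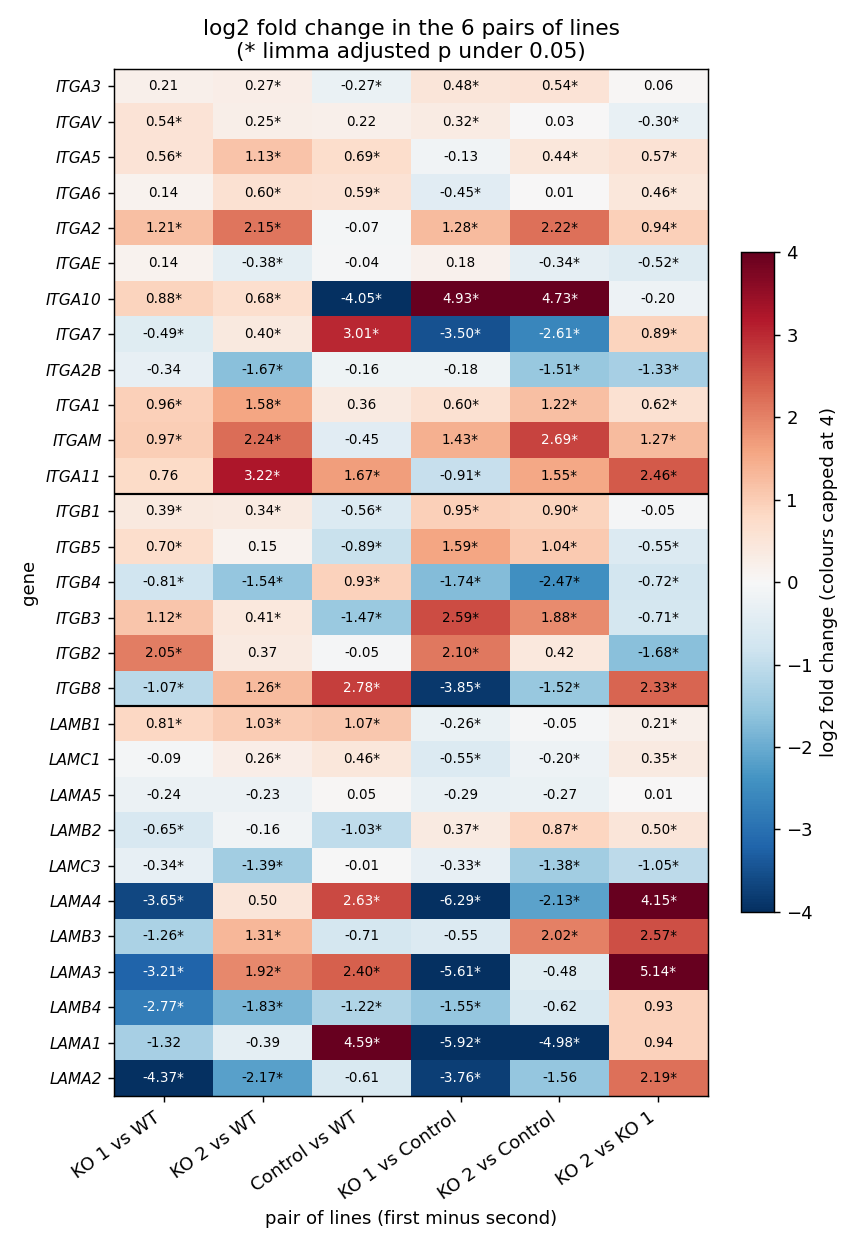
Log2 fold change of 29 tested members in the 6 pairs of lines, on the log2(normalised count + 1) scale, first line minus second, with red higher and blue lower (colours capped at 4). An asterisk marks a limma adjusted p under 0.05, and rows follow the 3 blocks of alpha subunits, beta subunits and laminin chains.

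Members that moved one way in both knockout lines against both competent lines included ITGA1, ITGA2, ITGA10, ITGAM, ITGB1 and ITGB3, which were higher, and ITGB4 and LAMC3, which were lower. In all, 9 of 30 passed the test in all 4 pairs in one direction, beside 19.1% of all genes (9.58% higher and 9.50% lower). At a mean of at least 100, 8 of 19 members did so, beside 22.4%. The stricter rule of the study's kind, called in one direction in both knockout lines against WT and not called in CRISPR Control against WT, kept ITGA1, ITGA2, ITGAM and ITGAV as higher and LAMA2 and LAMC3 as lower. These were 6 of 30, beside 10.2% of all genes (5.00% higher and 5.18% lower), and leaving out 1 library at a time gave 5 to 7.

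The clearest of these was ITGA2 (ENSG00000164171.11, chr5:52989340-53094779 in GRCh38, plus strand), the collagen-binding alpha subunit of epithelia and platelets. Its libraries held 2129, 2550.1 and 2441 normalised counts in WT, 2758, 1914 and 2177 in CRISPR Control, 5479.6, 5544 and 5363 in TIMP1 KO 1, and 11572, 10480.3 and 9563 in TIMP1 KO 2. The 2 competent lines overlapped, and every library of TIMP1 KO 2 lay above every library of TIMP1 KO 1, which in turn lay above all competent ones. The mean was 2.3-fold that of WT in TIMP1 KO 1 (log2 fold change 1.21, SE 0.107, limma adjusted p = 4.82e-08) and 4.44-fold in TIMP1 KO 2 (2.15, SE 0.107, limma adjusted p = 6.07e-12). CRISPR Control against WT gave -0.07 (SE 0.107, limma adjusted p = 0.615). Relative to ITGB1 per kb, the only beta subunit it is known to pair with, ITGA2 stood at 2.84% ± 0.147 in WT, 4.02% ± 0.624 in CRISPR Control, 4.99% ± 0.0708 in TIMP1 KO 1 and 9.92% ± 0.47 in TIMP1 KO 2.

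The RefSeq promoter of ITGA2 (chr5:52989102-52989401, GRCh38.p14, plus strand, from 250 bases before to 50 after the start site) is shown because this gene rose the most against WT in each knockout line among members with a mean of at least 100. Capitals mark 4 matches to GGGCGG, the letters bound by SP and KLF factors, at -119, -73, -63 and -9 from the start site. On either strand these letters occur in 45% of 35116 RefSeq promoters and in 19 of the 33 promoters of members, so a match is no mark of this gene.
ITGA2: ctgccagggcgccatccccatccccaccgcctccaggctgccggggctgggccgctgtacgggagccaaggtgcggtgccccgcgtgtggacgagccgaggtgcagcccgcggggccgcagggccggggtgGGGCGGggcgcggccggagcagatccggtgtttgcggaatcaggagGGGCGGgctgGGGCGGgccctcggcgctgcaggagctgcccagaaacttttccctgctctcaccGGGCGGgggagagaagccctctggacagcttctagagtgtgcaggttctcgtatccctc

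ITGA1, also collagen-binding, is the neighbour of ITGA2 on chromosome 5 (chr5:52787916-52959209, plus strand). It ran at 122, 90 and 140.0 in WT, 164, 134 and 149 in CRISPR Control, 212, 215 and 252 in TIMP1 KO 1 and 404, 317 and 327 in TIMP1 KO 2. The deficient libraries did not overlap with the competent ones, and TIMP1 KO 2 was again the higher knockout line (log2 fold change against WT 1.58, SE 0.158, limma adjusted p = 1.06e-07, and 0.96, SE 0.158, limma adjusted p = 0.000103, in TIMP1 KO 1). CRISPR Control against WT was 0.36 (limma adjusted p = 0.062), and this pair passed the threshold without replicate 3 of WT (limma adjusted p = 0.0217) or replicate 2 of CRISPR Control (0.0463). Of the exon bases of ITGA1, 13.2% are shared with other genes such as PELO, and the counting's strand setting is not given in the sources used here.

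ITGA10, a collagen receptor best known from cartilage, stood apart in CRISPR Control. It had 315, 335 and 331 normalised counts in WT and 39.7, 10.7 and 15.4 in CRISPR Control, against 564, 572 and 680.2 in TIMP1 KO 1 and 534, 552 and 492 in TIMP1 KO 2. CRISPR Control was lower than WT by 4.05 on the log2 scale (SE 0.277, limma adjusted p = 5.78e-10), the largest change of any member between the 2 competent lines other than that of LAMA1. Against WT the knockout lines were higher by 0.88 (SE 0.277, limma adjusted p = 0.0183) and 0.68 (SE 0.277, limma adjusted p = 0.0444). The latter call was lost in each of the 9 fits that left out 1 library of WT or of a knockout line (limma adjusted p 0.0512 to 0.108), and the former without replicate 1 of WT or replicate 3 of TIMP1 KO 1. ITGA11, the fourth collagen receptor, was low: it averaged 9.03 ± 6.23 in WT, 27.3 ± 5.42 in CRISPR Control, 13.9 ± 1.94 in TIMP1 KO 1 and 80.8 ± 0.972 in TIMP1 KO 2, where it was 3.22 above WT on the log2 scale (SE 0.363, limma adjusted p = 4.98e-07).

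**Figure D4:**
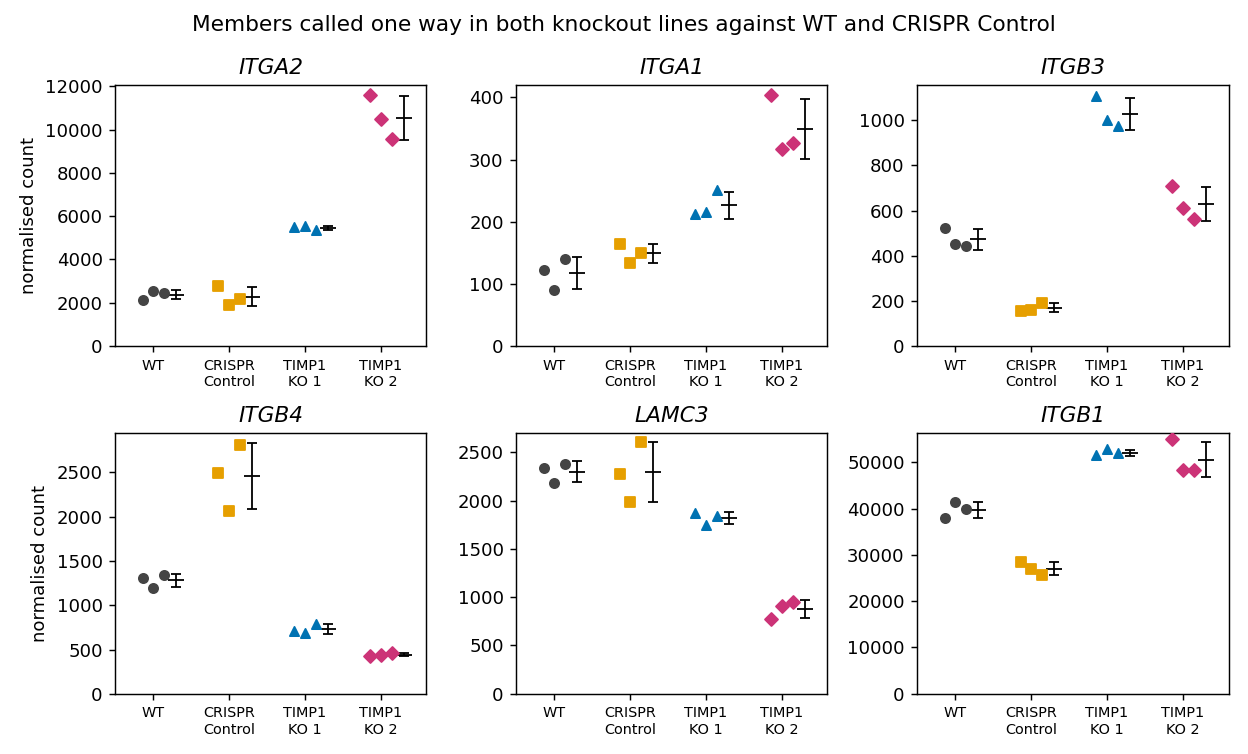
Normalised counts of 6 members by library (points, 3 per line) with the line mean and SD beside them (black), all axes from 0. ITGA2, ITGA1, ITGB3 and ITGB1 lie higher and ITGB4 and LAMC3 lower in all 6 knockout libraries than in all 6 competent ones.

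The common beta subunit ITGB1 was higher in both knockout lines and lower in CRISPR Control. It averaged 39764 ± 1725 in WT, 26998 ± 1385 in CRISPR Control, 52078 ± 623 in TIMP1 KO 1 and 50555 ± 3784 in TIMP1 KO 2. Against WT these were changes of -0.56, 0.39 and 0.34 on the log2 scale (SE 0.0736 each), with limma adjusted p of 4.07e-06, 0.000399 and 0.000623. The knockout lines differed from each other by -0.05 (95% confidence interval of the fitted difference -0.2 to 0.109), which missed the threshold.

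ITGB5 and ITGB3, partners of ITGAV in vitronectin binding, were highest in TIMP1 KO 1. ITGB5 ran at 31548, 27514 and 28539 in WT, 15723, 14615 and 16972 in CRISPR Control, 48087, 46084 and 48191 in TIMP1 KO 1 and 31216, 31880.2 and 34011 in TIMP1 KO 2. TIMP1 KO 1 was above and CRISPR Control below all other libraries, while WT and TIMP1 KO 2 overlapped. The log2 fold change against WT was 0.70 in TIMP1 KO 1 (SE 0.0753, limma adjusted p = 6.35e-07), 0.15 in TIMP1 KO 2 (SE 0.0753, limma adjusted p = 0.0996) and -0.89 in CRISPR Control (SE 0.0753, limma adjusted p = 1.23e-08). For TIMP1 KO 2 this passed with equal library totals (limma adjusted p = 0.00514), with quantile normalization (0.000827) and without replicate 1 of WT (0.0434).

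ITGB3 had 524, 451 and 442 normalised counts in WT, 157, 160.1 and 192 in CRISPR Control, 1108, 1003 and 973 in TIMP1 KO 1 and 711, 613 and 562 in TIMP1 KO 2. No 2 lines overlapped. Its log2 fold change against WT was 1.12 in TIMP1 KO 1 (SE 0.113, limma adjusted p = 2.85e-07), 0.41 in TIMP1 KO 2 (SE 0.113, limma adjusted p = 0.00509) and -1.47 in CRISPR Control (SE 0.113, limma adjusted p = 3.15e-09). The annotation places 33.2% of its exon bases also in an unnamed gene on the same strand, so part of these reads may be counted elsewhere or set aside. Per kb, ITGB3 was 0.804% to 1.62% of ITGB5 by line mean.

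ITGA5, the fibronectin receptor, was higher than in WT in each of the 3 edited lines. It ran at 3843, 3737 and 4053 in WT, 6464, 5451 and 6956 in CRISPR Control, 5624, 5446 and 6097 in TIMP1 KO 1 and 8193, 8935 and 8398 in TIMP1 KO 2. WT was below and TIMP1 KO 2 above all others, and CRISPR Control overlapped with TIMP1 KO 1. The log2 fold changes against WT were 0.69 in CRISPR Control (SE 0.0822, limma adjusted p = 1.14e-06), 0.56 in TIMP1 KO 1 (SE 0.0822, limma adjusted p = 2.87e-05) and 1.13 in TIMP1 KO 2 (SE 0.0822, limma adjusted p = 1.33e-09).

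ITGAV, shared by the vitronectin receptors, spanned a narrower range. It averaged 11547 ± 1577 in WT, 13402 ± 1456 in CRISPR Control, 16708 ± 821 in TIMP1 KO 1 and 13618 ± 921 in TIMP1 KO 2. TIMP1 KO 1 was above WT by 0.54 on the log2 scale (SE 0.0959, limma adjusted p = 0.000215). The 0.25 in TIMP1 KO 2 (limma adjusted p = 0.0376) was lost without replicate 1 or 3 of WT (0.248 and 0.056) or replicate 1 or 2 of TIMP1 KO 2 (0.148 and 0.055), so its place in the stricter set rests on these libraries.

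The laminin receptors split. ITGB4 (chr17:75721328-75757818, plus strand), which pairs with ITGA6 alone and anchors laminin to keratin in hemidesmosomes, held 1303, 1195 and 1345 normalised counts in WT, 2494, 2069.7 and 2809.9 in CRISPR Control, 708, 689.7 and 792 in TIMP1 KO 1 and 425, 441 and 456 in TIMP1 KO 2. No lines overlapped, in the order CRISPR Control, WT, TIMP1 KO 1, TIMP1 KO 2. Against WT it was lower by 0.81 in TIMP1 KO 1 (SE 0.1, limma adjusted p = 3.7e-06) and by 1.54 in TIMP1 KO 2 (SE 0.1, limma adjusted p = 2.89e-10), and higher by 0.93 in CRISPR Control (SE 0.1, limma adjusted p = 3.06e-07), all on the log2 scale.

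Its partner ITGA6 did not follow. ITGA6 averaged 5928 ± 214 in WT, 8906 ± 354 in CRISPR Control, 6537 ± 53.7 in TIMP1 KO 1 and 8984 ± 338 in TIMP1 KO 2, higher than in WT by 0.59 in CRISPR Control and by 0.60 in TIMP1 KO 2 (SE 0.0628, limma adjusted p = 2.86e-07 and 1.94e-07) and by 0.14 in TIMP1 KO 1 (limma adjusted p = 0.0879). Per kb, ITGB4 was 21.4% ± 1.82 of ITGA6 in WT, 27.2% ± 4.36 in CRISPR Control, 11.01% ± 0.74 in TIMP1 KO 1 and 4.85% ± 0.339 in TIMP1 KO 2. These ratios between partner subunits were computed after the levels had been seen and carry no test.

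ITGA3, the other laminin-binding alpha subunit of epithelia, averaged 10054 ± 648 in WT, 8389 ± 1129 in CRISPR Control, 11625 ± 179 in TIMP1 KO 1 and 12135 ± 709 in TIMP1 KO 2. Its 6 deficient libraries lay above its 6 competent ones, one of 10 members for which the 2 sets did not overlap, beside 24.7% of all genes. The changes were small: 0.27 against WT in TIMP1 KO 2 (limma adjusted p = 0.0123, and 0.0623 without replicate 2 of WT) and 0.21 in TIMP1 KO 1 (limma adjusted p = 0.0638).

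ITGA7, a laminin receptor of muscle, was highest in CRISPR Control, with 687, 591 and 685 normalised counts there against 80.4, 80.9 and 79.1 in WT, 64.8, 50.6 and 55.7 in TIMP1 KO 1 and 87.8, 124 and 110.0 in TIMP1 KO 2. CRISPR Control was 8.16-fold WT (log2 fold change 3.01, SE 0.152, limma adjusted p = 7.03e-12). The knockout lines lay on opposite sides of WT, at -0.49 in TIMP1 KO 1 (SE 0.152, limma adjusted p = 0.0167) and 0.40 in TIMP1 KO 2 (SE 0.152, limma adjusted p = 0.0321). Both of these calls were fragile: the first was lost without replicate 2 of TIMP1 KO 1 (0.0745), and the second without any 1 library of WT or replicate 2 or 3 of TIMP1 KO 2 (0.0597 to 0.157).

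ITGB8, which pairs with ITGAV and activates latent TGF-beta, was likewise highest in CRISPR Control. Its libraries held 10.2, 23.6 and 17.1 normalised counts in WT, 129.6, 113 and 108 in CRISPR Control, 5.4, 14.6 and 4.42 in TIMP1 KO 1 and 36.4, 48.2 and 36.3 in TIMP1 KO 2. WT and TIMP1 KO 1 overlapped, and the other lines did not. Against WT it changed by 2.78 in CRISPR Control (SE 0.359, limma adjusted p = 3.22e-06), by 1.26 in TIMP1 KO 2 (SE 0.359, limma adjusted p = 0.00614) and by -1.07 in TIMP1 KO 1 (SE 0.359, limma adjusted p = 0.0262) on the log2 scale, and the last of these was lost without replicate 2 or 3 of WT or replicate 1 or 3 of TIMP1 KO 1 (0.071 to 0.131).

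**Figure D5:**
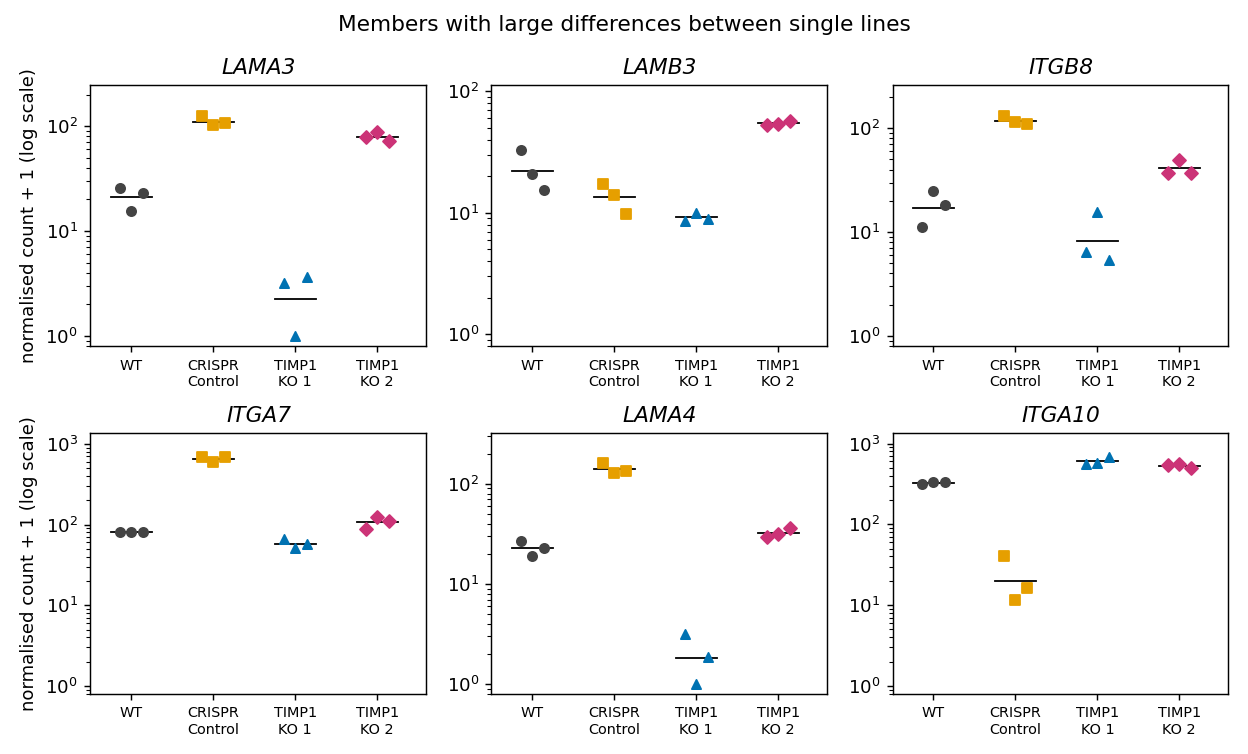
Normalised count + 1 by library on log axes for 6 members (points, 3 per line) with the geometric mean of each line (bar). By geometric mean TIMP1 KO 1 lies lowest for LAMA3, LAMB3, ITGB8, ITGA7 and LAMA4, and CRISPR Control lies highest for LAMA3, ITGB8, ITGA7 and LAMA4 and lowest for ITGA10.

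Of the tested integrins known from leukocytes and platelets, ITGAM, ITGB2 and ITGA2B were low, with means over the 12 libraries of 40.2, 64 and 99 normalised counts. ITGAE stood higher, at 573. ITGAM, of the complement receptor on myeloid cells, averaged 18.8 ± 5.12 in WT, 13.3 ± 2.1 in CRISPR Control, 37.2 ± 3.45 in TIMP1 KO 1 and 91.7 ± 18.6 in TIMP1 KO 2, higher than in WT by 0.97 (SE 0.258, limma adjusted p = 0.00629) and 2.24 (SE 0.258, limma adjusted p = 6.66e-07) in the knockout lines. ITGB2, the beta subunit it pairs with, was high in TIMP1 KO 1 alone, at 143 ± 3.78 against 34.6 ± 9.1 in WT, 33.6 ± 9.38 in CRISPR Control and 44.6 ± 9.46 in TIMP1 KO 2 (TIMP1 KO 1 against WT 2.05, SE 0.243, limma adjusted p = 2.28e-06). The knockout line with the most ITGAM was thus not the one with the most ITGB2 (TIMP1 KO 2 against TIMP1 KO 1 was 1.26 for ITGAM, limma adjusted p = 0.000719, and -1.68 for ITGB2, limma adjusted p = 2.24e-05). The leukocyte markers summed to 38.2 to 55.2 in the WT libraries, 38.5 to 42.7 in CRISPR Control, 77.7 to 94.0 in TIMP1 KO 1 and 159.6 to 174.5 in TIMP1 KO 2. Most of this sum was CD14, a myeloid marker and the only one of the 10 above the filter, at 36.2 ± 5.86 in WT, 36.5 ± 1.29 in CRISPR Control, 83 ± 6.17 in TIMP1 KO 1 and 161 ± 10.8 in TIMP1 KO 2. PTPRC, the pan-leukocyte marker, averaged 5.17 in WT, 2.31 in CRISPR Control, 0.36 in TIMP1 KO 1 and 2.49 in TIMP1 KO 2. Their part in the levels of ITGAM and ITGB2 was not tested, and in bulk RNA fewer cells of a type and less RNA per cell cannot be told apart.

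ITGA2B, the platelet fibrinogen receptor subunit, averaged 131 ± 4.91 in WT, 119 ± 27.5 in CRISPR Control, 105 ± 23.4 in TIMP1 KO 1 and 41 ± 8.17 in TIMP1 KO 2, where it was lower than in WT by 1.67 (SE 0.205, limma adjusted p = 1.46e-06). The 6 endothelial and platelet markers summed to 143 to 156 in WT, 45.1 to 63.1 in CRISPR Control, 112 to 123 in TIMP1 KO 1 and 246 to 278 in TIMP1 KO 2, and most of this sum outside CRISPR Control was KDR, an endothelial receptor (127 ± 8.91, 11.9 ± 4.13, 93.3 ± 9.05 and 213 ± 15.1 in that order). Of the platelet markers, GP1BA averaged 8.39 ± 2.56 in WT, 14.6 ± 7.59 in CRISPR Control, 13.8 ± 6.6 in TIMP1 KO 1 and 23.2 ± 7.06 in TIMP1 KO 2, and PF4 was at 0 in all libraries of 3 of the 4 lines. Their part in the level of ITGA2B was not tested. ITGAE, the receptor of intraepithelial lymphocytes for E-cadherin, averaged 596 ± 23.9, 583 ± 56.6, 658 ± 47.7 and 457 ± 12.9 in the same order of lines, lower than in WT by 0.38 in TIMP1 KO 2 (SE 0.0934, limma adjusted p = 0.00206).

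Among the abundant laminin chains, LAMA5 differed in no pair of lines. It averaged 13582 ± 787 in WT, 14265 ± 3159 in CRISPR Control, 11525 ± 1007 in TIMP1 KO 1 and 11630.0 ± 1278 in TIMP1 KO 2, and its spread was widest in CRISPR Control, where replicate 2 held 10637 against 16408 and 15749.5. Without that library all 3 edited lines differed from WT (limma adjusted p 0.0252 to 0.0359). With both knockout lines set against both competent ones (the mean of the line means), LAMA5 was lower by 0.26 (limma adjusted p = 0.0162, and 0.0515 without replicate 1 of TIMP1 KO 2).

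The beta chains that join LAMA5 moved apart. LAMB1 ran at 6361, 6039 and 6126 in WT, 14413, 12166 and 12489 in CRISPR Control, 10736, 10677 and 11151 in TIMP1 KO 1 and 12628, 12730.2 and 12335 in TIMP1 KO 2. All 3 edited lines were above WT, by 1.07 in CRISPR Control (SE 0.0693, limma adjusted p = 2.43e-10), 0.81 in TIMP1 KO 1 (SE 0.0693, limma adjusted p = 2.88e-08) and 1.02 in TIMP1 KO 2 (SE 0.0693, limma adjusted p = 4.89e-10) on the log2 scale. LAMB2 held 8023, 7270.4 and 7450.5 in WT, 4409, 3329 and 3513 in CRISPR Control, 4897, 4550.3 and 5011 in TIMP1 KO 1 and 6423, 7003 and 6983 in TIMP1 KO 2. It was lower than in WT by 1.02 in CRISPR Control (SE 0.0886, limma adjusted p = 1.63e-08) and 0.65 in TIMP1 KO 1 (SE 0.0886, limma adjusted p = 1.17e-05), while TIMP1 KO 2 gave -0.16 (SE 0.0886, limma adjusted p = 0.144). Per kb, LAMB2 was 121.8% ± 3 of LAMB1 in WT, 28.5% ± 1.67 in CRISPR Control, 44.1% ± 1.56 in TIMP1 KO 1 and 53.8% ± 2.94 in TIMP1 KO 2, so LAMB2 led in WT and LAMB1 in every edited line.

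Of the gamma chains, LAMC1, the one found in most laminins, averaged 7839 ± 146 in WT, 10892 ± 1742 in CRISPR Control, 7356 ± 86.7 in TIMP1 KO 1 and 9406 ± 153 in TIMP1 KO 2. It was 0.46 above WT in CRISPR Control (SE 0.085, limma adjusted p = 0.000164) and 0.26 in TIMP1 KO 2 (SE 0.085, limma adjusted p = 0.0138) on the log2 scale.

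LAMC3 (chr9:131009174-131094473, plus strand), a gamma chain outside the common trimers, held 2338, 2180.1 and 2380.3 in WT, 2278, 1987 and 2609.9 in CRISPR Control, 1867, 1746 and 1839 in TIMP1 KO 1 and 773, 910.1 and 953 in TIMP1 KO 2. The competent lines overlapped, and the knockout lines lay below them without overlap. The log2 fold change against WT was -0.34 in TIMP1 KO 1 (SE 0.096, limma adjusted p = 0.00979), -1.39 in TIMP1 KO 2 (SE 0.096, limma adjusted p = 6.47e-10) and -0.01 in CRISPR Control (limma adjusted p = 0.92). Per kb, LAMC3 was 31.2% ± 0.983 of LAMC1 in WT, 22.6% ± 3.52 in CRISPR Control, 26.3% ± 0.751 in TIMP1 KO 1 and 9.95% ± 1.19 in TIMP1 KO 2.

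LAMA3 and LAMB3, chains of the laminin that anchors epithelia to the basement membrane, were at the level of a few counts per kb. LAMA3 (chr18:23689453-23956222, plus strand) held 24.9, 14.5 and 21.9 normalised counts in WT, 123, 102 and 105 in CRISPR Control, 2.16, 0 and 2.65 in TIMP1 KO 1 and 77.9, 87.7 and 70.6 in TIMP1 KO 2. No lines overlapped. TIMP1 KO 1 had 5 reads in its 3 libraries together against 61 in WT, a ratio of 11.9 (exact 95% confidence interval 4.81 to 37.8, for counting error only), and its fitted log2 fold change against WT was -3.21 (SE 0.382, limma adjusted p = 2.35e-06). TIMP1 KO 2 was above WT by 1.92 (SE 0.382, limma adjusted p = 0.000322) and CRISPR Control by 2.40 (SE 0.382, limma adjusted p = 3.64e-05).

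LAMB3 (chr1:209614870-209652425, minus strand) held 31.7, 20 and 14.3 in WT, 16.4, 13 and 8.79 in CRISPR Control, 7.56, 9 and 7.95 in TIMP1 KO 1 and 52.2, 52.6 and 55.5 in TIMP1 KO 2. TIMP1 KO 2 lay above all other libraries. Against WT it was lower by 1.26 in TIMP1 KO 1 (SE 0.325, limma adjusted p = 0.00527) and higher by 1.31 in TIMP1 KO 2 (SE 0.325, limma adjusted p = 0.00218), and in CRISPR Control the change was -0.71 (SE 0.325, limma adjusted p = 0.0738). The knockout lines thus lay on opposite sides of WT for both chains, as for ITGA7 and ITGB8, which makes 4 of 30 members beside 1.69% of all genes.

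RefSeq promoters of LAMA3 (chr18:23872770-23873069, plus strand) and LAMB3 (chr1:209651325-209651624, minus strand) are both GRCh38.p14 and of the same extent as above. They are shown because the knockout lines lay on opposite sides of WT for both chains, which also held for ITGA7 and ITGB8. The LAMA3 start lies inside the gene, downstream of its first GENCODE exon, and the LAMB3 promoter is the one of 3 listed that holds the motif. Capitals mark TGANTCA, the letters bound by AP-1 (the same on both strands), at -125 and -69 in LAMA3 and at -67 in LAMB3. This motif is in 7.71% of all RefSeq promoters and in 3 of the 33 promoters of members, the third being that of ITGA5. The listed promoter of ITGB8 does not hold it, so the motif is not shared by all members with this pattern.
LAMA3: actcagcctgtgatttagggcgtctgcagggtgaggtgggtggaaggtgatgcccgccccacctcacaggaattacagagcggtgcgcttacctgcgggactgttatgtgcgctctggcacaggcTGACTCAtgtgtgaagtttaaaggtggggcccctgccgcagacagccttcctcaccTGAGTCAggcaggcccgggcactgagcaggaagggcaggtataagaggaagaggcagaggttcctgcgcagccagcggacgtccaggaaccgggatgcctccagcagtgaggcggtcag
LAMB3: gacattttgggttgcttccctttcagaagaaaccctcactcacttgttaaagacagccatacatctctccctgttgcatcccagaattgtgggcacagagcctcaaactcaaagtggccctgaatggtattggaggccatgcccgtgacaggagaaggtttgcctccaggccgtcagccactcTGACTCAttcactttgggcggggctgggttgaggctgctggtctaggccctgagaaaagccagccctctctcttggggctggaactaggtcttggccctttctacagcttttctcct

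The remaining laminin chains were low, and TIMP1 KO 1 had the least of each. LAMA4, a chain of vessels and muscle, held 26, 18.2 and 21.9 in WT, 162, 128 and 134 in CRISPR Control, 2.16, 0 and 0.883 in TIMP1 KO 1 and 28.2, 30.7 and 35.3 in TIMP1 KO 2. With 3 reads in TIMP1 KO 1 against 66 in WT and 417 in CRISPR Control, the ratios were 21.4 (7 to 106) and 141 (47.8 to 685). LAMA1, a chain of early embryonic basement membranes, had 67.4, 46.3 and 67 in CRISPR Control and no read in TIMP1 KO 1, so that CRISPR Control was at least 19.5-fold higher (floor of 3 reads per library), and 37.1-fold higher than WT by reads (15.6 to 116). LAMA2, the chain of muscle laminin, had no read in TIMP1 KO 1 and was at least 6.38-fold higher in WT, where it held 18.1, 19.1 and 21.9. Its lower level in TIMP1 KO 2 (12.4, 6.14 and 0, limma adjusted p = 0.0215) was lost without replicate 3 of WT (0.0601) or of TIMP1 KO 2 (0.156). LAMB4 averaged 36.4 ± 10.8 in WT, 15 ± 4.49 in CRISPR Control, 4.43 ± 1.19 in TIMP1 KO 1 and 9.31 ± 1.98 in TIMP1 KO 2, lower than in WT by 2.77 and 1.83 in the knockout lines (SE 0.368, limma adjusted p = 9.41e-06 and 0.000352). Both LAMA2 and LAMB4 passed the filter through the competent lines, where they were high, so their lower calls are not independent of the filter.

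The 8 members under the filter were ITGA4, ITGA8, ITGA9, ITGAD, ITGAL, ITGAX, ITGB6 and ITGB7, mostly integrins of leukocytes, smooth muscle or epithelial repair. Their highest library was 2.37 for ITGA4, 36.3 for ITGA8, 8.64 for ITGA9, 13.1 for ITGAD, 11.4 for ITGAL, 15.1 for ITGAX, 19.1 for ITGB6 and 7.69 for ITGB7. ITGA8, an RGD receptor of smooth muscle, had 36.3, 20.2 and 18.7 in CRISPR Control and no read in TIMP1 KO 1, at least 8.11-fold lower there. ITGAX, a myeloid subunit, had 42 reads in TIMP1 KO 2 against 6 in TIMP1 KO 1, a ratio of 6.18 (exact 95% interval 2.61 to 17.8). ITGB6, a beta subunit induced in epithelial repair and in carcinomas, stayed under 20 normalised counts in every library. It averaged 13.9 ± 4.46 in WT and 11.5 ± 4.84 in TIMP1 KO 2. In CRISPR Control it averaged 3.38 ± 3.98, and in TIMP1 KO 1 4.43 ± 1.19. These differences were not tested.

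The genes around the integrins and laminins were read from 4 lists, chosen with earlier results of these data known. With both knockout lines set against both competent ones, 32.9% of all genes were higher and 33.0% lower. Of 27 tested adaptors and activators of integrins, 9 were higher and 9 lower, with a median log2 fold change of -0.06, and TLN1, the main talin, was at -0.09 (limma adjusted p = 0.244). TLN2, the second talin, was highest in this list at 2.24 (SE 0.0786, limma adjusted p = 1.28e-14), with 992 ± 76.3 in WT, 117 ± 21 in CRISPR Control, 1624 ± 92.3 in TIMP1 KO 1 and 1583 ± 52.3 in TIMP1 KO 2. TNS1, a tensin, was lowest at -2.10 (SE 0.355, limma adjusted p = 3.84e-05), with 46.6 ± 10.6 in CRISPR Control and 2.79 to 6.3 by line mean elsewhere. CRISPR Control set both extremes apart: against WT, TLN2 was higher by 0.71 and 0.68 in the knockout lines (limma adjusted p = 5.69e-05 and 4.54e-05), and TNS1 passed in neither (0.145 and 0.363).

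Of 11 tested basement membrane partners of laminin, 5 were higher and 6 lower, with a median of -1.01. HSPG2, the proteoglycan perlecan that laminin binds, was higher by 1.41 (SE 0.123, limma adjusted p = 8e-09), at 3059 ± 378 in WT, 1820.4 ± 615 in CRISPR Control, 4574 ± 263 in TIMP1 KO 1 and 8227 ± 1021 in TIMP1 KO 2. COL4A1, a chain of the collagen IV network, averaged 81.7 ± 6.48 in WT and 168 ± 23.3 in CRISPR Control, and 0.375 ± 0.65 and 0.568 ± 0.493 in the knockout lines (limma adjusted p = 2.73e-13), where no library held more than 1 read, so that no fold is given. Of 8 laminin receptors outside the integrins and hemidesmosome parts, 3 were higher and 3 lower, with a median of 0.09. BCAM, a laminin receptor specific for LAMA5, was higher by 1.80 (SE 0.0635, limma adjusted p = 1.3e-14), at 1510.4 ± 66 in WT, 422 ± 44 in CRISPR Control, 2588 ± 121 in TIMP1 KO 1 and 3008 ± 301 in TIMP1 KO 2, and the hemidesmosome collagen COL17A1 was lower by 1.13 (SE 0.234, limma adjusted p = 0.000331), with 178 ± 22.7 in WT, 20.3 ± 10.6 in CRISPR Control, 14.8 ± 3.45 in TIMP1 KO 1 and 44.9 ± 5.15 in TIMP1 KO 2. Of these lines WT alone was high for COL17A1.

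Of 17 tested integrin ligands outside the laminins and collagens, 8 were higher and 8 lower, with a median of 0.28. THBS1, thrombospondin, led at 2.73 (SE 0.0585, limma adjusted p = 1.17e-17), with 648 ± 26.6 in WT, 269 ± 22.7 in CRISPR Control, 2582 ± 86.8 in TIMP1 KO 1 and 2972 ± 182 in TIMP1 KO 2. TNC, tenascin, was lowest at -5.21 (SE 0.26, limma adjusted p = 2.39e-12), with 212 ± 16.3 in WT, 789.6 ± 153 in CRISPR Control, 8.61 ± 5.63 in TIMP1 KO 1 and 14.3 ± 3.49 in TIMP1 KO 2. Over the members themselves, 26 differed in this comparison, beside 65.9% of all genes (70.5% at a mean of at least 100, where 16 of 19 members did). Of these, 14 were higher (32.9% of all genes) and 12 lower (33.0%): 8 of 12 alpha subunits and 4 of 6 beta subunits were higher, and 8 of 12 laminin chains were lower.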

How the data were processed

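RNA-seq of 4 MIA PaCa-2 lines with 3 biological replicates each was used. Per the study's methods, reads were checked with FastQC, trimmed with Cutadapt, aligned to GRCh38 with STAR, counted with featureCounts and normalised with DESeq2. The annotation release and the strand setting are not given in the sources used here. The deposited signal values are the authors' normalised counts, that is, reads per gene divided by a size factor. Within a tolerance of 0.01 reads, 100% of the values came back as whole reads. The 4 deposited columns of line means and 1 row with no gene name were not used.

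Genes with a mean of at least 10 normalised counts over the 12 libraries were kept (15987 of 63086 genes, with 99.9% of the reads). The log2(normalised count + 1) values were fitted with limma 3.58.1 (R 4.3.3) as 4 line means with a shared, mean-dependent spread. The 6 pairs of lines and the mean of both knockout lines against the mean of both competent lines were tested two-sided, with Benjamini-Hochberg adjustment over all genes tested and a threshold of 0.05. Fold changes of low genes are understated on this scale. Ratios of low read counts carry exact 95% intervals, and these and floors of 3 reads cover counting error only. edgeR 4.0.16 and DESeq2 1.42.0 were run on the recovered reads as alternatives. The other alternatives were other pseudocounts, filters and scalings, a replicate term, a spread from the lines compared alone, and leaving out each library. The fit was tested on simulated counts.

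A member counted among the 30 tested is not reported here by itself. Members were described in full where the mean was at least 100 and a change of at least 1 (log2) passed the threshold in at least 1 pair. ITGB1 and low members that differed between the knockout lines were added after their values were seen. From each list of related genes, the called genes with the highest and the lowest change are named, and TLN1 and the marker genes serve as context. The members and lists were chosen with earlier results of these data known. Gene positions, exon overlaps and MANE Select transcript lengths came from GENCODE 44 (38 of 38 members matched). RefSeq promoters (GRCh38.p14) were listed for 26 of the 38 members, 33 promoters in all, and sequences were read from that table. Partner ratios and the counts at a mean of at least 100 were added after the data had been seen. No replicate pairs held duplicated libraries (correlation of log2 values 0.9896 to 0.9934).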

Additional observations from a re-analysis of the deposited data

Results flagged for a closer look

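For 4 members the knockout lines were called in opposite directions against WT. The difference between the knockout lines is made up of these opposite changes. That it also passed limma's test follows largely from how the genes were picked and is no separate support. TIMP1 KO 2 was above TIMP1 KO 1 by 5.14 for LAMA3 (limma adjusted p = 4.82e-09), by 2.57 for LAMB3 (4.75e-06), by 2.33 for ITGB8 (4.49e-05) and by 0.891 for ITGA7 (0.000127), all as log2 fold changes. In all 4, the 3 libraries of TIMP1 KO 2 lay above the 3 of TIMP1 KO 1. With a pseudocount of 10 the LAMA3 difference was 2.94. The calls of ITGB8 and ITGA7 against WT were lost without some single libraries, as given with their values. The difference between the knockout lines passed the threshold in all 4 genes under every alternative tried, which the choice of these genes made likely.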

How the results depend on the processing

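No member changed direction while called under any alternative. Leaving out 1 library at a time, the members called of 30 ran from 20 to 24 in TIMP1 KO 1 against WT, 20 to 25 in TIMP1 KO 2 against WT, 17 to 20 in CRISPR Control against WT, 24 to 28 and 21 to 23 in the knockout lines against CRISPR Control, 21 to 24 between the knockout lines, 24 to 26 in deficient against competent lines, 29 to 30 across the 4 lines and 5 to 7 in the stricter set. With CRISPR Control held within 0.5 of WT on the log2 scale in place of not being called, the stricter set held 2565 genes in place of 1628 and still 6 members. edgeR on recovered reads gave 22, 24 and 19 members and DESeq2 22, 24 and 19 in the 3 lines against WT, as did limma. With equal library totals the median of all genes in TIMP1 KO 2 against CRISPR Control moved to 0.105, and with quantile normalization the share of higher genes among those called in TIMP1 KO 2 against WT was 44.8%.

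Replicate numbers did not pair the samples: deviations of same-numbered libraries correlated at -0.129 to 0.16 between lines. With a replicate block 22, 24 and 20 members were called in the lines against WT, 26 and 24 against CRISPR Control, 24 between the knockout lines, 26 in deficient against competent lines, 30 across the lines and 5 in the stricter set. A pseudocount of 10 shrank the fitted changes of LAMA1, LAMA2, LAMA3, LAMA4, LAMB3, LAMB4, ITGA11 and ITGB8 by over 1.5 times in at least 1 pair. Depth limits LAMA1, LAMA2, LAMA3 and LAMA4 in TIMP1 KO 1, where at most 3 reads per library were counted, and the 8 members under the filter.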
